A study of Homo sapiens with 4 samples.

Results

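The transcript levels of 8 genes for the red cell membrane and its blood group proteins were measured after knockdown of CEBPG. The 8 were RHAG, RHCE, GYPB, GYPC, ANK1, EPB42, SPTB and EPB41. They were chosen by name, from their place in the red cell membrane and with earlier results of these data known, out of 16504 gene symbols in the expression table. All 8 were listed there, and 7 of them were among the 10968 genes that were tested, those whose FPKM (fragments per kilobase of transcript, scaled to the mapped fragments of the library) averaged 1 or more. EPB42 was below that level.

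RNA-seq libraries from cells labelled NB4, a human acute promyelocytic leukemia line, made up the series: 2 controls in which CEBPG was present and 2 libraries with CEBPG knockdown. CEBPG encodes a basic leucine zipper factor of the C/EBP family. By the methods of the study, short hairpin RNAs were delivered from the lentiviral vector pLKO.1-puro, infected lines were selected with puromycin, and the controls carried a control hairpin. The label of the knockdown libraries reads CEBPG3, taken here as one of several hairpins, so that the comparison rests on 1 line and 1 hairpin. Nothing in the labels says that libraries of a group came from separate cultures, and p-values then measure only the spread between these libraries, which may be technical.

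Red cells keep their shape through a net of spectrin under the lipid bilayer. Ankyrin ties that net to the anion exchanger band 3 and to the Rh proteins, and protein 4.1 ties it to actin and glycophorin C at the junctions of the net. Several of the proteins that span the membrane carry blood group antigens. Erythroid cells make most of these proteins as they mature, and inherited loss of ankyrin, beta spectrin or protein 4.2 causes hereditary spherocytosis, and loss of protein 4.1 hereditary elliptocytosis.

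The FPKM of all genes summed to between 345340 and 366139 per library, and 10875 to 10964 genes had at least 1 FPKM. The knockdown was seen in CEBPG itself, at 17.1 and 18.1 FPKM in the controls and 6.91 and 7.96 FPKM in the knockdown libraries, or 42.2% of the control mean (log2 fold change -1.14, SE 0.082, limma adjusted p = 0.000836). The line's label was set against marker genes. Of 14 erythroid markers, 12 were above 10 FPKM in every library. GATA1, the erythroid master regulator, stood at 128.3, 112.5, 113.7 and 109.9 FPKM, and HBG1, a fetal globin, at 1539, 1485, 1998 and 1897 FPKM (control 1, control 2, knockdown 1, knockdown 2, the order used throughout). Of 8 promyelocytic granule markers, 4 were under 1 FPKM in every library, among them PRTN3 at 0.0897 to 0.188 FPKM and AZU1 at 0.370 to 0.570 FPKM. The other 4 were higher, LYZ at 15.0 to 20.1, SERPINB1 at 11.7 to 21.1, CFD at 7.63 to 10.98 and SRGN at 3.87 to 4.79 FPKM. Of 10 myeloid surface markers and regulators, 6 were under 1 FPKM in every library, with CEBPA at 0.175 to 0.382 FPKM. SPI1 was at 15.2 to 17.2, CD68 at 18.5 to 47.3, CD33 at 4.31 to 9.77 and CEBPE at 0.818 to 1.31 FPKM. The high erythroid markers and the granule genes under 1 FPKM go against what the label NB4 names, while LYZ, SPI1 and CD33 do not, and the libraries are called here the libraries labelled NB4.

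**Figure D1:**
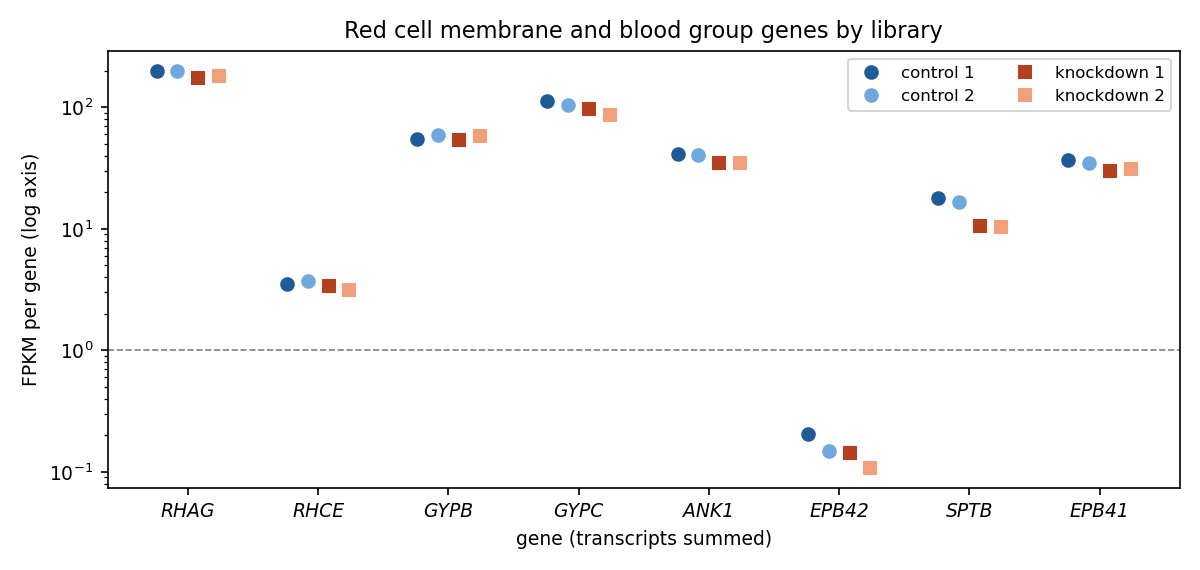
FPKM of the 8 genes (log axis) in the 2 control and the 2 knockdown libraries, 1 point per library, transcripts of a gene summed. The dashed line marks 1 FPKM. RHAG sits highest near 200 FPKM, EPB42 lies under 0.3 FPKM, and the knockdown points of SPTB fall clear of its control points.

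RHAG, the Rh-associated glycoprotein that the Rh antigens need to reach the membrane, was the most abundant of the 8 and ranked 247 of 16504 symbols by mean FPKM. GYPC ranked 579, GYPB 1169, ANK1 1798, EPB41 2056, SPTB 4320 and RHCE 8567. The genes for membrane-spanning blood group proteins thus held both the highest level and, EPB42 aside, the lowest. Summed, the 8 genes gave 466.7, 455.2, 403.1 and 403.9 FPKM, or 0.128%, 0.132%, 0.110% and 0.114% of the FPKM of each library. The knockdown libraries were lower, by a margin wider than the gap between the 2 libraries of either group, and RHAG made up the largest share of each sum. In bulk RNA, fewer cells that express a gene and less RNA per cell cannot be told apart.

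The DNA just before the transcription start is shown for the 7 members with an entry, and for RHD beside its near-identical partner RHCE. Each stretch is the last 120 bases before the RefSeq start that is also the MANE Select start (GRCh38.p14, RefSeq promoter table), written 5′ to 3′ on the strand of the gene. Capitals mark a GATA match on either strand (TGATA or AGATA followed by A or G) and, in GYPB, a match to TGATGCAA, a composite C/EBP and ATF element, on the opposite strand. The EPB41 stretch holds neither.
RHAG (chr6:49636840-49636959, minus strand): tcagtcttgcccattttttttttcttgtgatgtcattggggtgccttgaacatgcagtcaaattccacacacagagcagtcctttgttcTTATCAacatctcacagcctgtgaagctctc
RHCE (chr1:25420826-25420945, minus strand): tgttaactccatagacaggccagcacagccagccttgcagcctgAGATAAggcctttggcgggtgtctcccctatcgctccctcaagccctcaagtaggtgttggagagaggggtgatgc
RHD (chr1:25272389-25272508, plus strand): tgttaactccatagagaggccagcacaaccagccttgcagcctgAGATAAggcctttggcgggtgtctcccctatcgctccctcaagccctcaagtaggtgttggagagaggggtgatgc
GYPB (chr4:144019381-144019500, minus strand): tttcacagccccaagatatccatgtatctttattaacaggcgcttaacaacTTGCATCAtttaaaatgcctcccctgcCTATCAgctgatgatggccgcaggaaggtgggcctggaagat
GYPC (chr2:126656038-126656157, plus strand): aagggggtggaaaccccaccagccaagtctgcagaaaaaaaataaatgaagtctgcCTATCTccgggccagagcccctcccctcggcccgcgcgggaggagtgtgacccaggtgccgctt
SPTB (chr14:64879908-64880027, minus strand): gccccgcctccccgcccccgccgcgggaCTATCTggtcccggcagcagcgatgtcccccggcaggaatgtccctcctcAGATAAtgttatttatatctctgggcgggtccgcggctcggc
EPB41 (chr1:28914449-28914568, plus strand): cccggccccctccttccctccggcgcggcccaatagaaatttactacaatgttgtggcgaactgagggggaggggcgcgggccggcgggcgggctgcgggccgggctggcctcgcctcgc
EPB42 (chr15:43221019-43221138, minus strand): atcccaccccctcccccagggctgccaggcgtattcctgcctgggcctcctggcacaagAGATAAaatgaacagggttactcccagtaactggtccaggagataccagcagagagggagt

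The promoter table held 11 windows for 7 of the 8 genes, each from 250 bases before to 50 bases after a start. ANK1 had no entry. A GATA match stood in 9 of the 11 windows and in at least 1 window of all 7 genes. Over the whole table, 25% of 35116 windows and 29.1% of 27305 genes held one. The windows of RHCE overlap and hold the same GATA match. Those of GYPB overlap and hold the same 2, so that these sites count in more than 1 window. SPTB had 2 matches in its printed stretch. EPB41 had none there, its 1 match lying in its other window. GYPB had 1 in the printed stretch and another across the start itself. Matches to CCNCNCCC, the form bound by erythroid Krüppel-like factor, stood in 9 of 11 windows and 6 of 7 genes, against 56.2% of all windows and 58.9% of all genes. TGATGCAA stood in both windows of GYPB, which overlap, and in no window of the other 6 genes (0.866% of all windows). The window of GYPE, a near relative of GYPB outside the 8, also held it, with first bases at -223 and -110 from the start. The palindrome TTGCGCAA stood in 0 of the 11 windows (0.151% of all) and TGACGTCA in 1, of EPB41 (1.85% of all). All were searched on both strands, no match in these windows overlapped one of another motif, and the motifs were chosen with the windows in view. They describe letters only, since no binding was measured here.

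The Rh complex was examined first. RHAG lies on chromosome 6 (GRCh38, 49605175 to 49636839, minus strand; 10 exons in the MANE Select transcript). Its level was 200.2, 197.0, 173.7 and 179.2 FPKM. Both knockdown libraries were below both controls, at 88.9% of the control mean (198.6 ± 2.25 against 176.5 ± 3.89, SD, n = 2). The log2 fold change was -0.17 (SE 0.056, 95% interval -0.30 to -0.038), which did not pass the test (limma adjusted p = 0.0723).

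RHCE encodes the carrier of the C/c and E/e antigens and lies on chromosome 1 (25362249 to 25430192, minus strand; 10 exons). Its level was low, at 3.51, 3.75, 3.41 and 3.14 FPKM. The groups did not overlap, but the gap between them was smaller than that between the 2 libraries of either group, with a log2 fold change of -0.12 (SE 0.088, 95% interval -0.33 to 0.094, limma adjusted p = 0.382). Without knockdown 2 the log2 fold change of RHCE was -0.069. RHD, the gene of the D antigen, was at 2.76, 2.52, 2.32 and 2.21 FPKM (log2 fold change -0.16, limma adjusted p = 0.275). The 120 bases printed for RHCE and RHD were identical at 118 positions and differed by C16G and G28A (base of RHCE, position from the 5′ end of the stretch, base of RHD). In the RHCE transcript, 25.7% of all 50-base words also occur in RHD, so that the split of reads between the pair is uncertain. The ratio of RHCE to RHD was 1.27, 1.49, 1.47 and 1.42, and overlapped between groups. RHAG stood 57.0, 52.5, 50.9 and 57.1 times above RHCE, also with overlap. Of the RHCE transcript, 113 bases (7.19%) overlap TMEM50A, which had 19.9, 21.1, 18.5 and 18.0 FPKM.

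Of the glycophorins, GYPB and GYPC took different values. GYPB, which carries the S and s antigens, lies on chromosome 4 (143996104 to 144019380, minus strand; 5 exons). It was at 54.7, 58.7, 53.8 and 58.0 FPKM. The groups overlapped almost fully, and the knockdown mean was 98.6% of the control mean. Its log2 fold change of -0.020 (SE 0.067) had a 95% interval of -0.18 to 0.14 (limma adjusted p = 0.854). The sign of GYPB turned to 0.030 without control 2 and to 0.033 without knockdown 1. Of the 50-base words in its transcript, 26.8% also occur in other genes, 4.27% in GYPE, and its values are uncertain to that extent.

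GYPC, which carries the Gerbich antigens and binds protein 4.1, lies on chromosome 2 (126656133 to 126696667, plus strand; 4 exons). Its level was 112.7, 104.2, 96.7 and 86.8 FPKM. Both knockdown libraries were below both controls, at 84.6% of the control mean. The log2 fold change was -0.24 (SE 0.074, 95% interval -0.42 to -0.064), past the unadjusted threshold but not the adjusted one (limma adjusted p = 0.0616). With each library left out in turn, the log2 fold change of GYPC ranged from -0.32 to -0.16. No 50-base word of its transcript was found in another gene.

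GYPE, a near relative of GYPB, was at 42.7, 43.0, 43.97 and 44.8 FPKM (log2 fold change 0.050, limma adjusted p = 0.552). The ratio of GYPB to GYPE was 1.28, 1.37, 1.22 and 1.29 and overlapped. Differences in ratios were not tested, and reads shared between these genes bear on both.

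The ankyrin link was represented by ANK1 and EPB42. ANK1, which joins beta spectrin to band 3, lies on chromosome 8 (41653220 to 41896741, minus strand; 43 exons). It fell from 41.0 and 40.3 FPKM in the controls to 34.9 and 35.1 FPKM in the knockdown libraries. The libraries of each group lay close together and the groups did not overlap, with the knockdown mean at 86.1% of the control mean. The log2 fold change was -0.21 (SE 0.056, 95% interval -0.34 to -0.078, limma adjusted p = 0.0398). The call was near the threshold: it was lost without each of the 4 libraries in turn, with adjusted p from 0.0630 to 0.196.

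EPB42 encodes protein 4.2, which binds band 3 and ankyrin, and lies on chromosome 15 (43197227 to 43221018, minus strand; 13 exons). It was at 0.205, 0.147, 0.144 and 0.108 FPKM and was not tested. The lowest control and the highest knockdown library were almost equal. Fitted without a filter on low values, its log2 fold change was -0.063 (limma adjusted p = 0.442). SLC4A1, which encodes band 3, was also low, at 0.330, 0.498, 0.268 and 0.432 FPKM. The 2 genes of the band 3 and protein 4.2 pair were thus far below ANK1 in every library, while ANK1 and SPTB were well above 1 FPKM. How far below cannot be given with an error, as the read depth is unknown.

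SPTB had the largest log2 fold change of the 7 tested genes, though not the largest difference in FPKM. It encodes beta spectrin of the red cell, which forms the net and binds ankyrin, and lies on chromosome 14 (64746283 to 64879907, minus strand; 36 exons). It fell from 17.8 and 16.6 FPKM to 10.5 and 10.4 FPKM. The gap between the groups was several times the spread within them, and the knockdown mean was 60.8% of the control mean (17.2 ± 0.864 against 10.4 ± 0.0547, SD, n = 2). The log2 fold change was -0.67 (SE 0.067, 95% interval -0.82 to -0.51, limma adjusted p = 0.00199). SPTB passed the test under all 11 alternative settings of the gene fit, with log2 fold changes of -0.71 to -0.62 and adjusted p of 8.94e-05 to 0.0263. In its transcript, 3410 bases (33.5%) overlap exons of other genes, most of them of PLEKHG3 on the opposite strand. PLEKHG3 was not analysed here, and whether counting used strand is not given in the sources used here, so its reads cannot be told apart from those of SPTB.

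SPTBN1, the beta spectrin of most other cells, was at 24.3, 24.3, 22.1 and 23.4 FPKM (log2 fold change -0.095, limma adjusted p = 0.306). The ratio of SPTB to SPTBN1 was 0.731, 0.681, 0.475 and 0.445, lower in both knockdown libraries. The ratio of ANK1 to SPTB was 2.31, 2.43, 3.33 and 3.37, so that its level per transcript length moved from a little over 2 times that of SPTB to over 3 times. None of these ratios was tested.

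EPB41 encodes protein 4.1, which strengthens the contact of spectrin with actin, and lies on chromosome 1 (28887091 to 29120046, plus strand; 21 exons). It was at 36.6, 34.5, 29.9 and 31.2 FPKM. Both knockdown libraries were below both controls, at 85.9% of the control mean. The log2 fold change was -0.21 (SE 0.062, 95% interval -0.36 to -0.065), just outside the threshold (limma adjusted p = 0.0528). ANK1 was just inside it with the same log2 fold change to 2 decimals, and no difference between the pair was tested. The ratio of EPB41 to EPB41L2, a paralog made in many cells, was 1.26, 1.19, 1.10 and 1.12, lower in both knockdown libraries.

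**Figure D2:**
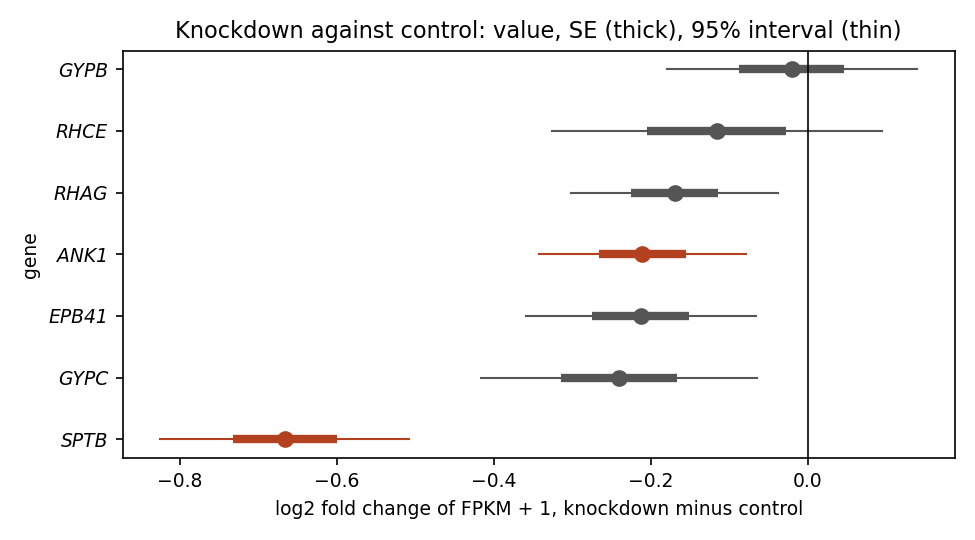
Log2 fold change of FPKM + 1 (knockdown minus control, x axis) for the 7 tested genes, with the SE as a thick bar and the 95% interval as a thin bar. SPTB stands at -0.67, GYPB at -0.020 with an interval across 0, and GYPC, ANK1, EPB41, RHAG and RHCE lie between -0.24 and -0.12.

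Counted together, 2 of the 7 tested genes passed an adjusted p of 0.05, SPTB and ANK1, both lower. Among all 10968 tested genes 20.9% were called, 9.99% lower and 10.9% higher. The log2 fold change was below 0 in 7 of 7 genes, where 47.3% of all genes were below 0. With either of the other scalings of the libraries it was also below 0 in 7 of 7. It was below 0 in 6 of 7 without control 2 (51.7% of all genes) and without knockdown 1 (47.1%), where GYPB turned sign. Both knockdown libraries lay below both controls in 6 of the 7, against 30.5% of all genes. The median log2 fold change of the 7 was -0.21, that of all tested genes 0.015. The criterion of the study, a log2 fold change over 1 in either direction together with an unadjusted p under 0.05, was met by 0 of the 7 and by 0.602% of all genes. With limma, 5 of the 7 had an unadjusted p under 0.05, all of them lower, a threshold that 37% of all genes passed, 17.4% of all genes being lower in knockdown.

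The table listed 26 RefSeq transcripts for the 8 genes, and 13 had a mean of at least 1 FPKM. None of the 13 was called when transcripts were tested singly with limma, where 0.158% of 15795 transcripts were called. In 6 of the 13, both knockdown libraries were below both controls (25.8% of all transcripts). For SPTB, NM_000347 held 93.4% of the gene, at 17.1, 15.3, 10.1 and 9.12 FPKM, with a log2 fold change of -0.69 (limma adjusted p = 0.0903). The other SPTB entry, NM_001024858, was at 0.699, 1.31, 0.359 and 1.29 FPKM and overlapped between groups. The larger part of the FPKM difference in SPTB lay in its main transcript, which did not pass the test over transcripts.

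In ANK1, 3 entries held nearly all of the signal. NM_020476, with 51.5% of the gene, was at 21.6, 19.1, 18.6 and 18.7 FPKM (log2 fold change -0.12). NM_020477, with 33.3%, was at 14.1, 14.4, 11.4 and 10.6 FPKM, with a wider gap (log2 fold change -0.35, limma adjusted p = 0.134). NM_020475, with 13.9%, was at 4.99, 6.24, 4.57 and 5.22 FPKM and overlapped. The 5 other entries of ANK1 were under 1 FPKM in every library. In GYPC, NM_002101 was at 81.1, 89.8, 72.1 and 73.8 FPKM (79.1% of the gene), lower in both knockdown libraries. NM_016815 of GYPC was at 31.1, 13.8, 23.6 and 12.3 FPKM, high in the first library of each group and low in the second.

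The entries of EPB41 varied more between libraries of a group than the gene did. NM_001166007 held 80.6% of EPB41, at 23.7, 31.6, 21.8 and 29.5 FPKM. NM_001166006 of EPB41 was at 5.24, 1.89, 1.27 and 1.21 FPKM, lower in both knockdown libraries (log2 fold change -0.92, limma adjusted p = 0.324). NM_004437 of EPB41 was at 6.91 FPKM in control 1 and at 0.688, 1.14 and 0.471 FPKM in the other libraries. NM_203343 of EPB41 was at 3.46 FPKM in knockdown 1 and at 0.777, 0.258 and 0 FPKM in the others. The sum over entries varied less within a group than its main entry did. GYPB rested on NM_002100 (99.5% of the gene) and RHCE on NM_020485 (91.3%), while RHAG and EPB42 had 1 entry each.

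**Figure D3:**
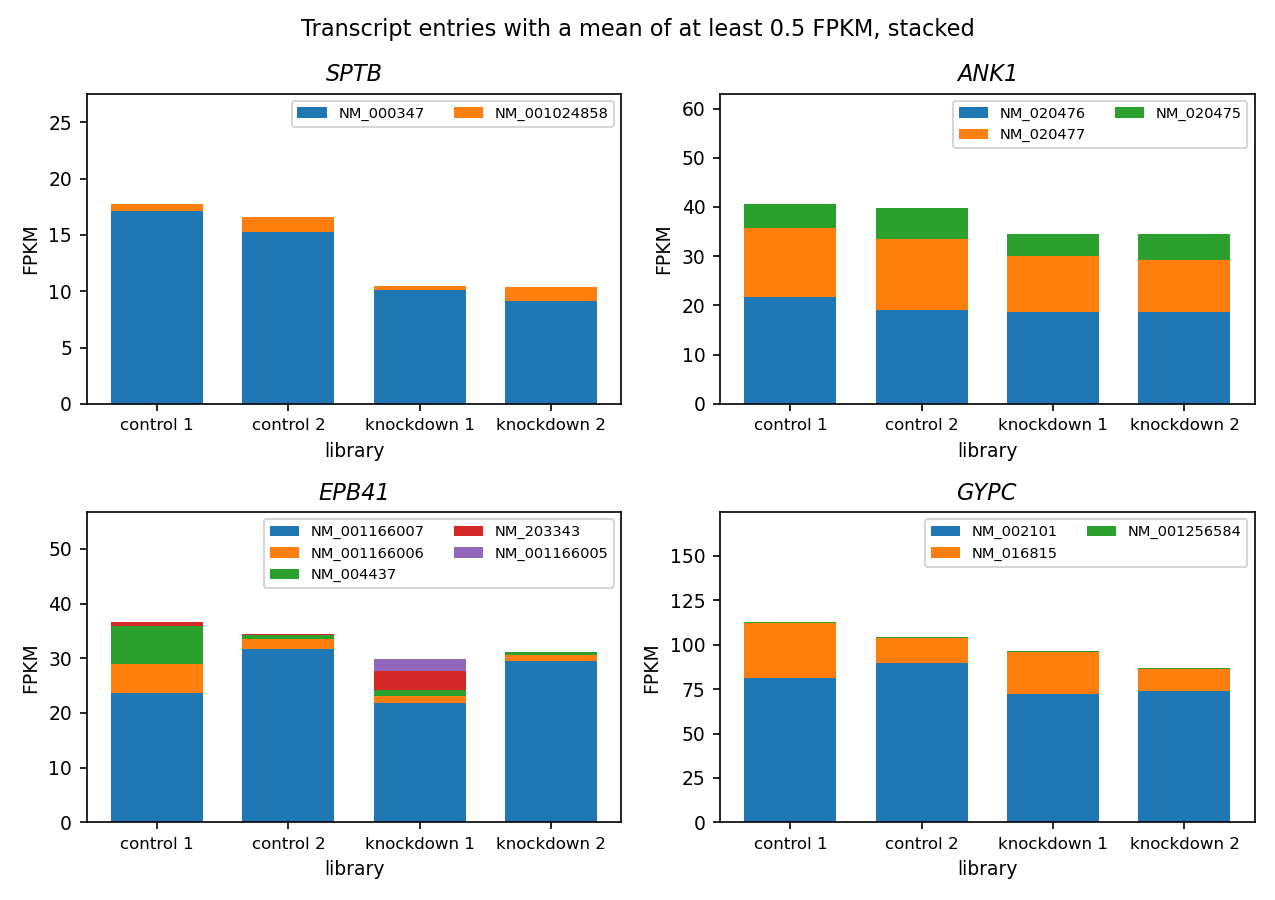
FPKM of transcript entries with a mean of at least 0.5 FPKM, stacked for each library in panels for single genes, each y axis from 0. In SPTB the main entry is lower in both knockdown libraries, at 10.1 and 9.12 FPKM, and in EPB41 the split among entries shifts between libraries of the same group.

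Genes that work beside the 8 were counted from lists made with earlier results of these data known. Of 4 further genes of the ankyrin and Rh complexes, 3 were tested, of which 1 rose, 0 fell and 2 did not pass with limma (median log2 fold change -0.16, 2 of the 3 at an unadjusted p under 0.05, 1 of them lower). The gene that rose was CD47, a surface protein that sits with the Rh complex, at 18.8, 19.1, 24.5 and 24.8 FPKM (log2 fold change 0.36, limma adjusted p = 0.00883). RHD and ICAM4, the carrier of the LW antigens, did not pass (ICAM4 log2 fold change -0.24, limma adjusted p = 0.0739). The call of CD47 was kept in 2 of the 4 fits that leave out a library.

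Of 13 genes listed for the junctional complex, all were tested, of which 1 rose, 3 fell and 9 did not pass (median 0.0089). The list was drawn broadly and also holds PIEZO1, STOM and TMOD3, so that its counts are not those of the complex alone. At an unadjusted p under 0.05 in limma there were 9 of the 13, of which 4 were lower and 5 higher. MPP1, which encodes the membrane partner p55 of protein 4.1 and glycophorin C, rose from 140.6 and 127.1 to 161.9 and 158.6 FPKM (log2 fold change 0.26, limma adjusted p = 0.0364). The ratio of GYPC to MPP1 was 0.802, 0.820, 0.597 and 0.547, lower in both knockdown libraries. DMTN, which encodes the actin bundler dematin, fell from 16.2 and 14.1 to 11.1 and 9.20 FPKM (log2 fold change -0.53, limma adjusted p = 0.0162). The tropomyosin genes TPM3 (161.7, 152.4, 120.7 and 113.7 FPKM, log2 fold change -0.42, limma adjusted p = 0.00645) and TPM1 (7.50, 7.99, 5.90 and 6.51 FPKM, log2 fold change -0.28, limma adjusted p = 0.0487) fell as well. ADD2, beta adducin, had a log2 fold change of -0.10 (limma adjusted p = 0.248). When 1 library was left out, the calls of DMTN and TPM3 were lost without knockdown 2, that of TPM1 without any of the 4, and that of MPP1 was kept in 1 of the 4 fits.

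Of 31 genes for other blood group systems, 26 were analysed and 18 tested, of which 2 rose, 3 fell and 13 did not pass (median 0.045). At an unadjusted p under 0.05 in limma there were 7 of the 18, of which 4 were lower. KEL, the Kell glycoprotein, rose from 3.93 and 4.94 to 6.43 and 6.02 FPKM (log2 fold change 0.42, limma adjusted p = 0.0358). XK, which is linked to Kell in the membrane, fell from 9.91 and 8.66 to 6.85 and 7.21 FPKM (log2 fold change -0.35, limma adjusted p = 0.0283). The 2 partners thus had opposite signs, each call being kept in 1 of the 4 fits that leave out a library. CD55, the complement regulator of the Cromer system, rose from 30.8 and 30.9 to 36.0 and 35.4 FPKM (log2 fold change 0.20, limma adjusted p = 0.0444, lost in all 4 such fits). AQP3, the glycerol channel of the GIL system, fell from 7.63 and 7.44 to 4.93 and 4.75 FPKM (log2 fold change -0.55, limma adjusted p = 0.00464, kept in all 4). ABCB6, a transporter that carries the Lan antigen, fell from 14.9 and 13.2 to 11.1 and 11.4 FPKM (log2 fold change -0.29, limma adjusted p = 0.0404, kept in 1 of 4).

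Of 14 paralogs of the 8 genes that are made outside the red cell, 10 were analysed and 6 tested, of which 0 rose, 1 fell and 5 did not pass with limma (median -0.046, 1 of the 6 at an unadjusted p under 0.05). TGM2, a transglutaminase related to protein 4.2, fell from 13.4 and 12.3 to 10.1 and 8.80 FPKM (log2 fold change -0.41, limma adjusted p = 0.0198, kept in 2 of 4 fits). SPTAN1, a spectrin of most other cells, had a log2 fold change of -0.012 (limma adjusted p = 0.915). The called shares of the lists were 28.6% for the 8 genes, 33.3% for the ankyrin and Rh complexes, 30.8% for the junctional complex, 27.8% for other blood groups and 16.7% for the paralogs, against 20.9% of all genes. With 3 to 18 genes tested in each list, a single gene moves these shares by a wide margin, most of all in the shortest list.

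**Figure D4:**
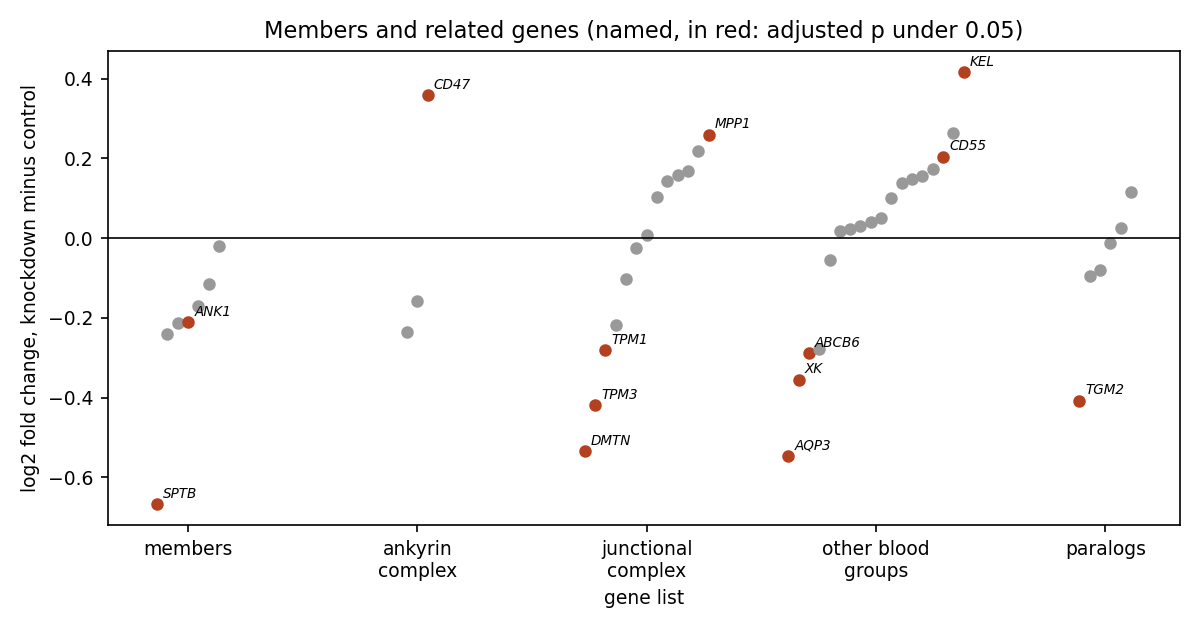
Log2 fold change (knockdown minus control, y axis) of each tested gene in the 8 members and the 4 related lists, 1 point per gene, those with an adjusted p under 0.05 named in red. The members lie at or below 0, down to SPTB at -0.67, while the other lists hold points on both sides of 0.

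Marker genes of cell types were set beside these values. Of 13 tested erythroid markers, 3 rose (TAL1 and the near-identical pair HBG1 and HBG2, between which the split of reads is uncertain), 1 fell (ALAS2, the first enzyme of erythroid heme synthesis, log2 fold change -0.73) and 9 did not pass. The list summed to 8155, 7699, 9343 and 8773 FPKM, a sum made up mostly of globins, and higher in both knockdown libraries. The median over the list was 107.1, 92.2, 100.01 and 94.4 FPKM and overlapped between groups. AHSP, the alpha hemoglobin chaperone, was under 0.5 FPKM in every library. Of 4 tested granule markers 1 rose (CFD) and 2 fell (LYZ and SERPINB1), and of 3 tested myeloid markers 1 rose (CD68). The granule list summed to 55.5, 50.2, 43.7 and 44.1 FPKM and the myeloid list to 42.8, 43.7, 76.8 and 73.3 FPKM, most of the latter difference being CD68 (20.6, 18.5, 47.3 and 43.9 FPKM). Of 8 megakaryocyte markers, 4 were analysed and 2 tested, of which ITGA2B rose (log2 fold change 0.42). With 1 library left out, the calls of ALAS2, SERPINB1 and CD68 were kept in all 4 fits, those of TAL1, HBG1 and CFD in 2, those of LYZ and ITGA2B in 1 and that of HBG2 in 0. The part of these marker shifts in the levels of the 8 genes was not tested.

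The calls depended on how the values were processed. SPTB was called in all 11 alternatives fitted to whole genes but not as a single transcript (limma adjusted p = 0.0903). ANK1 was called in 5 of 11 alternatives. GYPC passed in 5 of 11, EPB41 in 4 and RHAG in 3, while GYPB and RHCE passed in none. With the replicate number as a block, GYPC (adjusted p = 0.00329), RHAG (0.0121) and EPB41 (0.0236) passed in limma. That fit called 31.4% of all genes, against 20.9% in the main fit. The replicate numbers mark nothing shared in the labels.

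**Figure D5:**
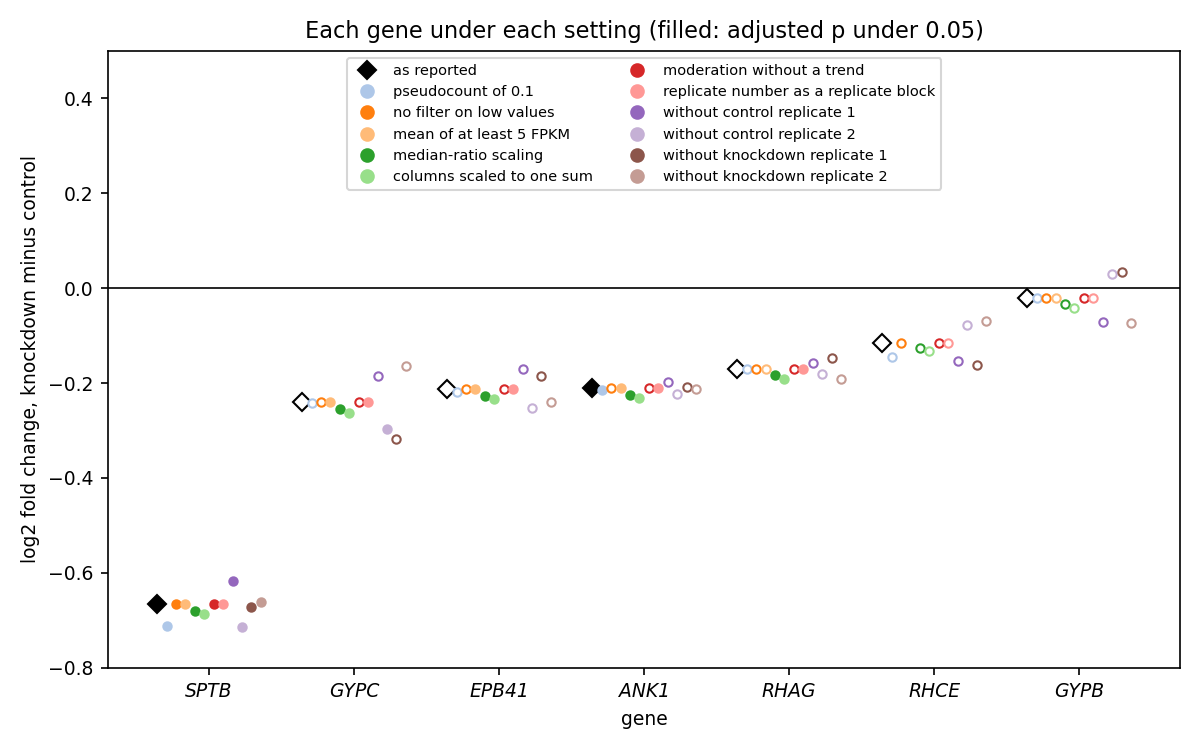
Log2 fold change (y axis) of each of the 7 tested genes under the main setting and the alternatives fitted to whole genes, filled points having an adjusted p under 0.05. SPTB is filled throughout, between -0.71 and -0.62, and GYPB lies on both sides of 0, from -0.074 to 0.033.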

How the data were processed

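Total RNA of 4 libraries (2 controls, 2 CEBPG knockdown) was made into Illumina libraries and sequenced by the study. The authors deposited FPKM per RefSeq transcript. Per the submitters' processing notes, reads were mapped with HISAT2 2.0.5 to hg38; the tool that gave FPKM is not given in the sources used here. The table had 29265 entries, of which 183 had no value and 164 no symbol (0.250% of FPKM); 0 columns of other samples were left out.

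FPKM was summed per symbol and tested as log2(FPKM + 1) with limma 3.58.1 in R 4.3.3 (moderated with a trend, 2-sided, Benjamini-Hochberg over the 10968 genes that averaged 1 FPKM or more, threshold 0.05). Fold changes are on this scale, which understates those of low genes. The count test of the study could not be used on FPKM. Low values of 1817 single-transcript genes gave no whole reads, so read depth is unknown and no counting interval was made. The test was checked on simulated data.

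The 8 members, the related lists and the markers were chosen with earlier results of these data known. All members were named, as were CEBPG, list genes with an adjusted p under 0.05, and fixed structural partners, but 2 genes first placed in the ankyrin complex list are not reported here and were left out of its counts. CD68, CFD, LYZ and the other markers, TMEM50A, ICAM4 and EPB41L2 were named after their values were seen. Gene positions are from GENCODE on GRCh38, promoter windows from RefSeq. Alternatives were another pseudocount (0.1), filter (none, or 5 FPKM), scaling, moderation without a trend, a replicate block, the most abundant transcript alone and each library left out.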

Additional observations from a re-analysis of the deposited data

How the results depend on the processing

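Over 76 alternative values of the 7 tested members, 56 kept their direction and side of the threshold, 6 lost the call (all ANK1), 12 gained it (GYPC 5, EPB41 4, RHAG 3) and 2 turned sign. The last were GYPB, 0.030 without control 2 and 0.033 without knockdown 1 (leave-one-out range -0.074 to 0.033). ANK1 had an adjusted p of 0.0584 without a filter and 0.0752 without a trend. Members called were 2 (20.9% of all genes), but 1 without a filter (5.34%), 4 at a mean of 5 FPKM or more (29.0%), 5 with median-ratio scaling (24.5%), 5 with columns scaled to one sum (24.4%), 1 without a trend (17.2%), 0 with the most abundant transcript alone (0.158% of all transcripts) and 1 to 2 when a library was left out (7.39% to 17.6% of all genes). With the replicate block it was 5 (31.4% of all genes).

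Of all genes, 2288 were called, 882 without a filter, 3440 with the replicate block and 809 to 1931 with a library left out (809 without knockdown 1, 865 without knockdown 2). Such fits called 0 to 1 ankyrin complex genes (1 in full), 0 to 3 junctional (4), 1 to 6 other blood group (5) and 0 to 1 paralogs (1). A group left with 1 library is assumed to vary like the other. The cause of these changes was not tested. The replicate numbers mark nothing shared in the labels, and same-numbered deviations correlated at 0.101 over 2 pairs, so that the blocked fit is given as an alternative only. Calls higher made up 52.1% of the total, 48.4% with median-ratio scaling, 46.7% with one sum, and 43.2% to 62.9% with a library left out. No detection limit was computed, and read depth is unknown.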
